A study of Mus musculus with 6 samples.

Results

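The genes described here encode the lipid phosphate phosphatases and the proteins that make and sense lysophosphatidic acid (LPA). They are 3 phosphatases (Plpp1, Plpp2 and Plpp3), the secreted enzyme autotaxin (Enpp2) and 5 LPA receptors (Lpar1, Lpar2, Lpar3, Lpar4 and Lpar6). They were chosen by gene family and pathway with earlier results of these data known, and each symbol matched 1 gene identifier. They make up 9 of the 55401 genes in the count table, of which 29043 had at least 1 count in some library.

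The RNA came from C3H10T1/2 cells, a mouse mesenchymal line that can be driven toward bone, fat or cartilage fates in culture. The cells carried a short hairpin RNA that was a control (shControl), targeted Nfib (shNFIB) or targeted Kmt2a, the gene for the histone methyltransferase MLL1 (shMLL1). RNA was sequenced from untreated cells (day 0) and from cells kept for 7 days in osteogenic medium (day 7) to ask which genes need NFIB, a DNA-binding factor of the nuclear factor I (NFI) family, or MLL1 during bone differentiation. The medium held dexamethasone at 0.1 μM, ascorbic acid 2-phosphate at 100 μg/ml and β-glycerophosphate at 20 mM, and was given at day 7 alone, so day and medium cannot be told apart.

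There were 6 libraries, 1 for each line on each day, and all cells of the series derive from the same parental line. Total counts were 32662704 at day 0 and 29086652 at day 7 in shControl. They were 34774066 and 30406559 in shNFIB, and 30838517 and 21608680 in shMLL1. Levels are given on the counts-per-million scale (CPM), for which each library total was multiplied by its TMM factor, edgeR's correction for differences in RNA composition. With 1 library per condition a ratio between 2 libraries has no replicate check. Its 95% interval (exact Clopper-Pearson) covers counting error only, and a gene is called past 2-fold when the ratio exceeds that fold in either direction and at least 10 counts lie in 1 of the 2 libraries. Tests were made over the lines or over the days with edgeR's quasi-likelihood method.

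Autotaxin cleaves lysophosphatidylcholine outside the cell to release LPA, a lipid that acts through G protein-coupled receptors on contraction, migration and growth. The lipid phosphate phosphatases are membrane enzymes whose active site faces the outside of the cell or the lumen of organelles, where they remove the phosphate from LPA, sphingosine 1-phosphate and related lipids and so end their signal. In bone and fat, LPA signalling is known to act on osteoblast and adipocyte precursors, and autotaxin is a well-known product of fat cells.

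Across the 3 lines, the RNAs of Enpp2, Plpp3 and Plpp1 rose over the 7 days and that of Plpp2 fell. The calls of Enpp2 and Plpp2 held in 8 of 8 alternatives, that of Plpp3 in 7 and that of Plpp1 in 5. Plpp3 was lower in shNFIB than in shControl on both days, by 4.11-fold at day 0 and 7.83-fold at day 7. In shMLL1 it was 2.22-fold and 2.37-fold lower, a difference that did not pass the test. Enpp2 was not lower in shNFIB, so the ratio of autotaxin RNA to Plpp3 RNA was highest in the shNFIB libraries. The receptor RNAs were mostly Lpar1 and Lpar4, and none of the receptors was called in the edgeR quasi-likelihood test as planned, while Lpar1 by day passed in 2 of 8 alternatives.

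The hairpin targets were examined to check the labels. Nfib (ENSMUSG00000008575) stood at 116 CPM at day 0 and 83.5 CPM at day 7 in shControl, at 35.3 and 8.15 CPM in shNFIB, and in shMLL1 at 65.5 and 72.7 CPM. Its log2 ratio of shNFIB to shControl was −1.72 at day 0 (interval −1.82 to −1.62) and −3.36 at day 7 (−3.55 to −3.17). Kmt2a (ENSMUSG00000002028) stood at 74.7 and 66.3 CPM in shControl, at 86.5 and 94 CPM in shNFIB, and in shMLL1 at 30.9 and 34.8 CPM. Its log2 ratio of shMLL1 to shControl was −1.27 at day 0 (−1.38 to −1.16) and −0.93 at day 7 (−1.05 to −0.81). An antisense gene shares part of the Kmt2a exons, which leaves its counts uncertain by those reads. Both targets were lowest in the lines labelled with their knockdown. In the edgeR quasi-likelihood test over both days the log2 difference was −2.39 for Nfib in shNFIB (adjusted p = 0.14, Benjamini-Hochberg) and −1.10 for Kmt2a in shMLL1 (adjusted p = 0.149), lower in 2 of 2 libraries in each case. Neither passed the adjusted threshold in that fit. In shMLL1, Nfib itself had log2 ratios to shControl of −0.83 at day 0 and −0.20 at day 7.

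Marker genes were summed to check the cell type. All libraries carried a strong mesenchymal profile, with at least 9 of 10 markers above 3 counts and a summed level between 4336 and 10849 CPM, led by Vim or Col1a1. The sum was lower at day 7 in each line. It went from 8008 to 5924 CPM in shControl, from 10849 to 6734 CPM in shNFIB and from 5629.8 to 4336 CPM in shMLL1. By day, edgeR called 1 of 9 tested mesenchymal markers higher and 4 lower (all genes, 16.8% and 16.5%). In shNFIB Thy1 was the 1 of 9 called (all genes, 0.376%), higher by 2.36 on the log2 scale (edgeR with Benjamini-Hochberg, adjusted p = 0.0299). In shMLL1 0 of 9 were called. Endothelial markers summed to at most 0.902 CPM and haematopoietic ones to at most 8.2 CPM, almost all from Cd68. Epithelial markers summed to at most 9.05 CPM, nearly all from Cdh1, with Epcam and Krt18 at 0 in the 6 libraries. Chondrocyte markers summed to between 80.9 and 409.7 CPM, led by Col2a1 or Sox9, and Acan was at 0 in the 6 libraries.

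The summed osteoblast markers and the summed adipocyte markers were highest in shControl at day 7, while the chondrocyte sum was highest in shControl at day 0 (409.7 CPM, and 130.0 CPM at day 7). Osteoblast markers summed to 265 CPM at day 0 and 1555 CPM at day 7 in shControl, to 255 and 276 CPM in shNFIB, and to 267 and 361 CPM in shMLL1. Spp1 was the most abundant of them in each library and made up 1381 CPM at day 7 in shControl. At day 7 there were 7 of 8 osteoblast markers above 3 counts in shControl, 5 of 8 in shNFIB and 4 of 8 in shMLL1, and the bone matrix gene Ibsp was at 0 in the 6 libraries. Against shControl at day 7, 4 of 6 measured osteoblast markers were past 2-fold lower in shNFIB and 1 was higher, with a median log2 ratio of −1.98 (all genes, 2212 lower and 1349 higher of 16716, median −0.01). In shMLL1 5 were lower and 1 was higher, with a median of −1.75 (all genes, 1175 lower and 1451 higher of 16898, median −0.03). Runx2 stood at 117 CPM in shControl, 30.4 CPM in shNFIB and 35.3 CPM in shMLL1, and Dlx5 at 52.5, 3.69 and 15.9 CPM. Alpl, at 3.64, 7.27 and 0.082 CPM, and Phex, at 0.82, 8.25 and 6.19 CPM, were the 2 with their highest day 7 level in shNFIB.

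Adipocyte markers summed to 51 and 205 CPM in shControl, to 63.5 and 94.1 CPM in shNFIB, and to 18.2 and 32.1 CPM in shMLL1. At day 7 there were 9 of 10 above 3 counts in shControl and 7 of 10 in each knockdown line. Pparg led that list except at day 7 in shControl, where Cfd led at 69.8 CPM, while Adipoq was at 0 there and had at most 1 count in any library. Against shControl at day 7, 7 of 9 measured adipocyte markers were past 2-fold lower in shNFIB and 1 was higher. Their median log2 ratio was −5.65 (−5.24 with bounds for genes at 0), beside −0.01 for all genes. Of all 16716 genes compared, 2212 were lower and 1349 higher. In shMLL1 8 were lower and 0 higher, with a median of −3.75 (all genes, 1175 lower and 1451 higher of 16898, median −0.03). Cfd stood at 69.8 CPM in shControl, 0.744 CPM in shNFIB and 1.84 CPM in shMLL1, Lpl at 35.6, 0.744 and 0.164 CPM, Cidec at 22.3, 0.169 and 0.697 CPM, and Plin1 at 15.5, 0.304 and 1.15 CPM. Retn was at 3.84 CPM in shControl and at 0 in both knockdown lines. Pparg, at 42, 84.2 and 20.9 CPM, was the 1 past 2-fold higher in shNFIB, and Fabp4 lay between 3.58 and 4.84 CPM in the 6 libraries. Plpp3 was highest in the same library, shControl at day 7, and lower in both knockdown lines there, as were most markers of bone and of fat, and the part of these markers in its level was not tested. In bulk RNA, fewer cells of a type and less RNA per cell cannot be told apart.

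**Figure D1:**
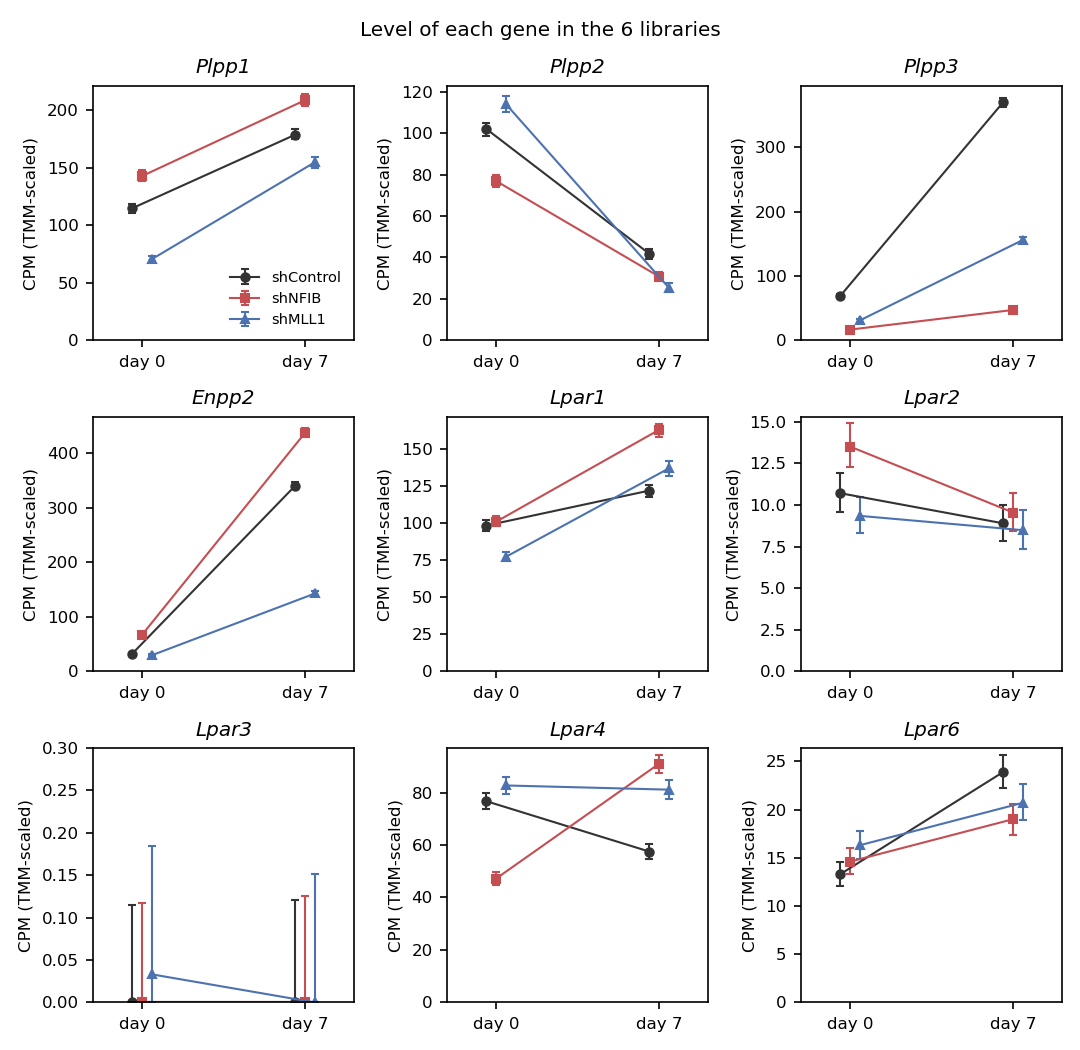
Level of each of the 9 genes (vertical axes, TMM-scaled CPM from 0) at day 0 and day 7 in shControl (black circles), shNFIB (red squares) and shMLL1 (blue triangles), with bars for the 95% counting interval and lines joining the libraries of a line. Plpp3 reached 370.2 CPM in shControl at day 7 against 47.3 CPM in shNFIB and 156 CPM in shMLL1, and Lpar3 had 1 count in all.

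Plpp3 (ENSMUSG00000028517, chr4:105157347-105232764 on the plus strand of GRCm38, 6 annotated exons) encodes a phosphatase of the plasma membrane that hydrolyses extracellular LPA. Its level was 69.2 CPM at day 0 and 370.2 CPM at day 7 in shControl. It was 16.8 and 47.3 CPM in shNFIB, and 31.1 and 156 CPM in shMLL1. Each day 7 library was higher than the day 0 library of its line, and on each day the order was shControl, then shMLL1, then shNFIB. The shNFIB library at day 7 stood below the untreated shControl library.

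Within the lines, the log2 ratio of day 7 to day 0 for Plpp3 was 2.42 in shControl (2.35 to 2.49, 5.35-fold). It was 1.49 in shNFIB (1.35 to 1.64, 2.81-fold) and 2.32 in shMLL1 (2.22 to 2.43, 5.01-fold). Over the lines Plpp3 rose by 2.08 on the log2 scale (SE 0.25, edgeR quasi-likelihood, Benjamini-Hochberg adjusted p = 0.00184, higher in 3 of 3 lines). The call was lost when the line was not a block in the edgeR fit (adjusted p = 0.0619, Benjamini-Hochberg), and over the 8 alternatives the adjusted p ran from 1.62e-12 to 0.0619.

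Against shControl, the Plpp3 log2 ratio in shNFIB was −2.04 at day 0 (−2.18 to −1.90) and −2.97 at day 7 (−3.05 to −2.89). Of the 15719 genes compared at day 0, 381 had a lower ratio than Plpp3, and at day 7 there were 373 of 16716. Over both days it was lower by a log2 difference of −2.49 (SE 0.31, edgeR quasi-likelihood, Benjamini-Hochberg adjusted p = 0.0358), in 2 of 2 libraries. These are the day 0 and day 7 libraries of 1 line. With 1 line per hairpin, the tests over both days cannot tell the knockdown from other differences between the lines. Over 5 alternatives of the fit the adjusted p lay between 6.04e-11 and 0.0299. Plpp3 was chosen with results from these same RNA libraries known, so this direction is not independent evidence. The day 7 ratio was lower than the day 0 ratio by a log2 difference of −0.93 (−1.09 to −0.77, counting error only), which was not tested against replicates.

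In shMLL1 the Plpp3 log2 ratio to shControl was −1.15 at day 0 (−1.26 to −1.04) and −1.25 at day 7 (−1.30 to −1.19). These ratios were almost the same on the 2 days, differing by −0.10 (−0.22 to 0.03). Both knockdowns were set against the same shControl libraries, so the values for shNFIB and shMLL1 are not independent of each other. Over both days the log2 difference was −1.20 (SE 0.29, edgeR quasi-likelihood, Benjamini-Hochberg adjusted p = 0.234, lower in 2 of 2 libraries), which did not pass. With DESeq2 (adjusted p = 0.0299) or without the filter on low counts in edgeR (adjusted p = 0.0215, Benjamini-Hochberg) it passed, and the range over 5 alternatives was 0.0215 to 0.269. A difference between the knockdowns was not tested.

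Plpp1 (ENSMUSG00000021759, chr13:112800792-112867894, plus strand) encodes a broadly expressed phosphatase of the same family. Its level was 115 and 179 CPM at day 0 and day 7 in shControl, 143 and 209 CPM in shNFIB, and 70.7 and 155 CPM in shMLL1. It was higher at day 7 in each line and lowest in shMLL1 on both days. Its log2 ratio of day 7 to day 0 was 0.65 in shControl, 0.55 in shNFIB and 1.13 in shMLL1. Plpp1 rose by 0.77 on the log2 scale (SE 0.21, edgeR quasi-likelihood, Benjamini-Hochberg adjusted p = 0.0288, 3 of 3 lines). This call was lost in 3 of 8 alternatives: without the line block in edgeR (adjusted p = 0.108, Benjamini-Hochberg), without shControl (0.156) and without shMLL1 (0.0801), with a range of 0.00381 to 0.156. Its exons share 452 bases (25.8% of 1750) with Mtrex on the other strand, and the strand setting of the counting is not given in the sources used here, so reads from that stretch cannot be assigned with certainty. Mtrex had 1201 to 2714 counts and Plpp1 had 2135 to 6184. Against shControl its log2 ratios were 0.32 and 0.22 in shNFIB and −0.70 and −0.21 in shMLL1 at day 0 and day 7.

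Plpp2 (ENSMUSG00000052151, chr10:79526430-79533796, minus strand) encodes another phosphatase of the family. It went the other way, from 102 to 41.8 CPM in shControl, from 76.9 to 30.8 CPM in shNFIB and from 114 to 25.4 CPM in shMLL1. The highest day 7 library lay below the lowest day 0 library. The log2 ratios of day 7 to day 0 were −1.29 (−1.38 to −1.19), −1.32 (−1.43 to −1.21) and −2.17 (−2.29 to −2.04) in that order. Plpp2 fell by 1.59 on the log2 scale (SE 0.24, edgeR quasi-likelihood, Benjamini-Hochberg adjusted p = 0.00416), lower in 3 of 3 lines, and the fall passed in 8 of 8 alternatives. Against shControl its log2 ratios were −0.41 and −0.44 in shNFIB, and 0.16 and −0.72 in shMLL1, at day 0 and day 7.

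To compare the phosphatases with each other, counts were divided by the union of exon lengths and put on the transcripts-per-million scale (TPM) within each library. The summed TPM of the 3 genes was 416 at day 0 and 672 at day 7 in shControl, 378 and 435 in shNFIB, and 294 and 487 in shMLL1. Plpp3 made up 14.7% of that sum at day 0 in shControl (14.1 to 15.3, delta-method interval for counting error) and 47.8% at day 7 (47.1 to 48.6). Its share was 3.98% (3.64 to 4.32) and 9.77% (9.27 to 10.3) in shNFIB, and 8.27% (7.74 to 8.79) and 32.2% (31.3 to 33.2) in shMLL1. By this measure Plpp3 was the leading phosphatase RNA in shControl at day 7, and the least abundant of the 3 in 4 of 6 libraries, which were the 3 at day 0 and shNFIB at day 7.

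The remaining share moved between Plpp1 and Plpp2. Plpp1 held 44% and 41.9% of the phosphatase TPM in shControl, 61.2% and 78.1% in shNFIB, and 33.9% and 57.7% in shMLL1. Plpp2 held 41.3% and 10.3% in shControl, 34.8% and 12.1% in shNFIB, and 57.8% and 10% in shMLL1. Plpp1 thus led the phosphatases in 4 of 6 libraries, shControl at day 0, both of shNFIB and shMLL1 at day 7, and Plpp2 led in the untreated shMLL1 library. In shControl at day 0 the counting intervals of Plpp1 (177 to 189 TPM) and Plpp2 (166 to 178 TPM) overlapped.

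Autotaxin, encoded by Enpp2 (ENSMUSG00000022425, chr15:54838901-54952892, minus strand), is the main source of extracellular LPA. Its level was 32.7 CPM at day 0 and 341 CPM at day 7 in shControl. It was 67.3 and 438 CPM in shNFIB, and 29.7 and 143 CPM in shMLL1. Each day 7 library lay above every day 0 library, with shNFIB highest and shMLL1 lowest on each day. The log2 ratio of day 7 to day 0 was 3.38 in shControl (3.29 to 3.48, 10.4-fold), where 602 of 16786 genes had a higher one. It was 2.70 in shNFIB (2.64 to 2.77, 6.52-fold) and 2.27 in shMLL1 (2.16 to 2.38, 4.82-fold). Enpp2 rose by 2.79 on the log2 scale (SE 0.27, edgeR quasi-likelihood, Benjamini-Hochberg adjusted p = 0.000955), higher in 3 of 3 lines, and the rise passed in 8 of 8 alternatives. An antisense gene, Gm26684, shares 345 of its exon bases (5.97%) and had 0 to 34 counts, against 895 to 12955 for Enpp2.

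The Enpp2 differences between lines had opposite signs in the 2 knockdowns. In shNFIB the log2 ratio to shControl was 1.04 at day 0 (0.93 to 1.15, 2.06-fold) and 0.36 at day 7 (0.32 to 0.40). In shMLL1 it was −0.14 at day 0 (−0.27 to −0.01) and −1.26 at day 7 (−1.31 to −1.20, 2.39-fold lower). Over both days neither passed the edgeR quasi-likelihood test, with a log2 difference of 0.67 in shNFIB (Benjamini-Hochberg adjusted p = 0.439) and −0.71 in shMLL1 (adjusted p = 0.558), each in the same direction in 2 of 2 libraries. The day 0 ratio in shNFIB sat at the edge of 2-fold and was 0.93 when libraries were scaled by total count alone.

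Set against each other per length, the RNA of the LPA-making enzyme and that of Plpp3 stood in a ratio of 0.258 (0.24 to 0.278) at day 0 and 0.504 (0.491 to 0.518) at day 7 in shControl. The ratio was 2.19 (1.99 to 2.41) and 5.07 (4.8 to 5.36) in shNFIB. It was 0.52 (0.474 to 0.571) and 0.501 (0.478 to 0.525) in shMLL1. By this length Enpp2 transcripts outnumbered those of Plpp3 in the shNFIB libraries, while Plpp3 transcripts were the more abundant in the other 4. The size of the ratio depended on the length used: with the longest transcript of each gene it was 0.482 (0.448 to 0.519) and 0.941 (0.916 to 0.967) in shControl, 4.08 (3.71 to 4.5) and 9.47 (8.96 to 10) in shNFIB, and 0.972 (0.886 to 1.07) and 0.936 (0.893 to 0.98) in shMLL1. With either length the shNFIB values were above 1, while the interval of shMLL1 at day 0 spanned 1 with the longest transcript.

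**Figure D2:**
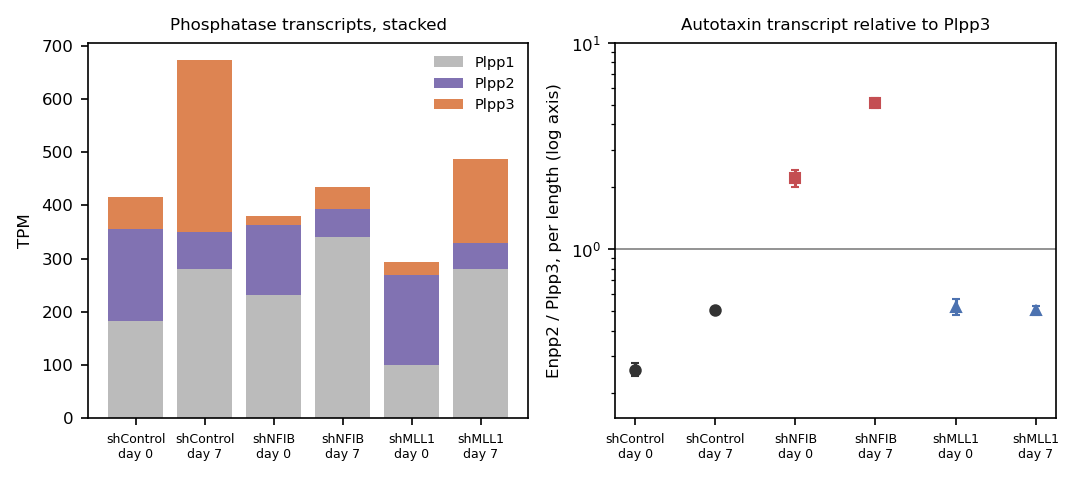
Left, TPM of Plpp1, Plpp2 and Plpp3 stacked for each of the 6 libraries. Right, ratio of Enpp2 to Plpp3 per length on a log axis with 95% counting intervals, where the line marks a ratio of 1 and the shNFIB libraries stand at 2.19 and 5.07 while the others lie between 0.258 and 0.52.

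Among the receptors, Lpar1 (ENSMUSG00000038668, chr4:58435255-58553898, minus strand) couples LPA to several G protein classes and is the widely expressed receptor of mesenchymal cells. Its level was 98.4 and 122 CPM at day 0 and day 7 in shControl, 101 and 163 CPM in shNFIB, and 77.3 and 137 CPM in shMLL1. It was higher at day 7 in each line, with log2 ratios of 0.31, 0.68 and 0.82. In the edgeR quasi-likelihood test the log2 difference of 0.60 (SE 0.20, 3 of 3 lines) did not pass (Benjamini-Hochberg adjusted p = 0.0514). DESeq2 (adjusted p = 0.0229) and edgeR with scaling by total count alone (0.0321) placed it past the threshold, with a range of 0.0229 to 0.172 over 8 alternatives. Against shControl its log2 ratios were 0.04 and 0.42 in shNFIB and −0.35 and 0.17 in shMLL1.

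Lpar4 (ENSMUSG00000049929, chrX:106920625-106933900, plus strand), a receptor of the P2Y-like branch, took a different course in each line. Its level was 76.7 and 57.5 CPM in shControl, 47.2 and 91 CPM in shNFIB, and 82.7 and 81.1 CPM in shMLL1. The log2 ratio of day 7 to day 0 was −0.42 in shControl (−0.51 to −0.33), 0.95 in shNFIB (0.85 to 1.04) and −0.03 in shMLL1. In shNFIB it was the lowest of the day 0 libraries and the highest of the day 7 libraries. The log2 difference by day over the lines was 0.16 (edgeR quasi-likelihood, Benjamini-Hochberg adjusted p = 0.674), higher in 1 of 3 lines. The log2 ratio of shNFIB to shControl was −0.70 at day 0 and 0.66 at day 7, and the gap of 1.36 between them (1.23 to 1.49) has no test beyond counting error.

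Lpar6 (ENSMUSG00000033446, chr14:73237895-73243294, plus strand, a gene of 1 exon) and Lpar2 (ENSMUSG00000031861, chr8:69822429-69831102, plus strand) encode further LPA receptors and were low. Lpar6 ranged from 13.3 CPM at day 0 to 23.9 CPM at day 7 in shControl, and the other libraries lay between these values. It was higher at day 7 in 3 of 3 lines, with log2 ratios of 0.84, 0.38 and 0.35, and did not pass the edgeR quasi-likelihood test (log2 difference 0.52, Benjamini-Hochberg adjusted p = 0.0959). It lies within the retinoblastoma gene Rb1 on the other strand and shares 408 exon bases (7.56%) with it, so its counts are uncertain by the reads of that stretch. Rb1 had 792 to 1560 counts and Lpar6 had 425 to 728. Lpar2 lay between 8.48 and 13.5 CPM, with log2 ratios of day 7 to day 0 of −0.27, −0.50 and −0.14.

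Lpar3 (ENSMUSG00000036832, chr3:146220963-146286186, plus strand) encodes a receptor with a known role in the uterus. It had 0 counts in 5 libraries and 1 count in shMLL1 at day 0. At these depths a count of 0 leaves room for up to 0.115 to 0.151 CPM, so Lpar3 was not detectable and was not tested. The other 8 of 9 genes passed the filter on low counts.

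Per length, the receptors summed to 127 and 131 TPM at day 0 and day 7 in shControl, 113 and 184 TPM in shNFIB, and 104 and 179 TPM in shMLL1. Lpar1 made up 50.6% and 59.3% of that sum in shControl, 59.4% and 58.8% in shNFIB, and 42.7% and 56.6% in shMLL1. Lpar4 made up 39.9% and 28.3%, 28% and 33.2%, and 46.3% and 34% in the same order. With the union of exon lengths Lpar1 led the receptors in 5 of 6 libraries, and Lpar4 stood slightly above it in the untreated shMLL1 library, where the counting intervals of the 2 levels overlapped. With the longest transcript Lpar1 led in 6 of 6, with 47.5% against 42.5% for Lpar4 in that library.

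Over the 9 genes and with the union of exon lengths, Plpp1 had the highest TPM in 4 of 6 libraries, Plpp2 in shMLL1 at day 0 (169.8 TPM) and Plpp3 in shControl at day 7 (322 TPM). With the longest transcript Plpp1 led in 3, since Enpp2 (316 TPM) stood above Plpp1 (292 TPM) in shNFIB at day 7. The rank of Plpp3 was 4 at day 0 and 1 at day 7 in shControl, 6 on both days in shNFIB, and 5 and 2 in shMLL1, with either length. Lpar6, Lpar2 and Lpar3 held the lowest ranks in each library. Of 48 pairs of neighbours in the orders by union length, 5 had overlapping counting intervals. Among them, in shControl at day 0, were Plpp1 (183 TPM) and Plpp2 (172 TPM), and Lpar1 (64.1 TPM) and Plpp3 (61.1 TPM). The spread between replicates is not known for any of them.

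Counted by comparison, 3 of 8 measured genes (Plpp2, Plpp3 and Enpp2) were past 2-fold between day 0 and day 7 in shControl, where 37.9% of the 16786 genes compared were past it. In shNFIB there were again 3, Plpp2, Plpp3 and Enpp2, against 30.5% of all genes. In shMLL1 there were 4, with Plpp1 added, against 45.6%. Between shNFIB and shControl, 2 of 8 were past 2-fold at day 0 (13.6% of all genes), Plpp3 lower and Enpp2 higher. At day 7 only Plpp3 was, 1 of 8 against 21.3%. Between shMLL1 and shControl, Plpp3 was past 2-fold at day 0, 1 of 8 against 20.4%, and Plpp3 and Enpp2 at day 7, 2 of 8 against 15.5%. The shares of the 8 genes past 2-fold were thus near those of all genes in the day comparisons. The median log2 ratio of the 8 genes was 0.48, 0.61 and 0.58 for the day in shControl, shNFIB and shMLL1, beside 0.00, −0.03 and 0.04 for all genes. The medians of the knockdown ratios lay between −0.21 and 0.16, beside −0.04 to 0.09 for all genes.

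In the edgeR quasi-likelihood test by day, 4 of 8 were called (Benjamini-Hochberg), where 33.3% of the 16742 genes tested were. Of the 4, 3 were higher at day 7 (16.8% of all genes) and 1 was lower (16.5%). At unadjusted p under 0.05 there were 6, beside 46.9% of all genes, and with DESeq2 there were 5, beside 38.9%. Plpp3 was the 1 of 8 called in shNFIB, where 0.376% of genes (63) were called. In shMLL1 the edgeR test called 0 of 8, against 0.0299% of genes (5), with 1 of 8 at unadjusted p under 0.05 (9.28% of genes) and 1 with DESeq2 (2.5% of genes), which was Plpp3 in both cases.

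**Figure D3:**
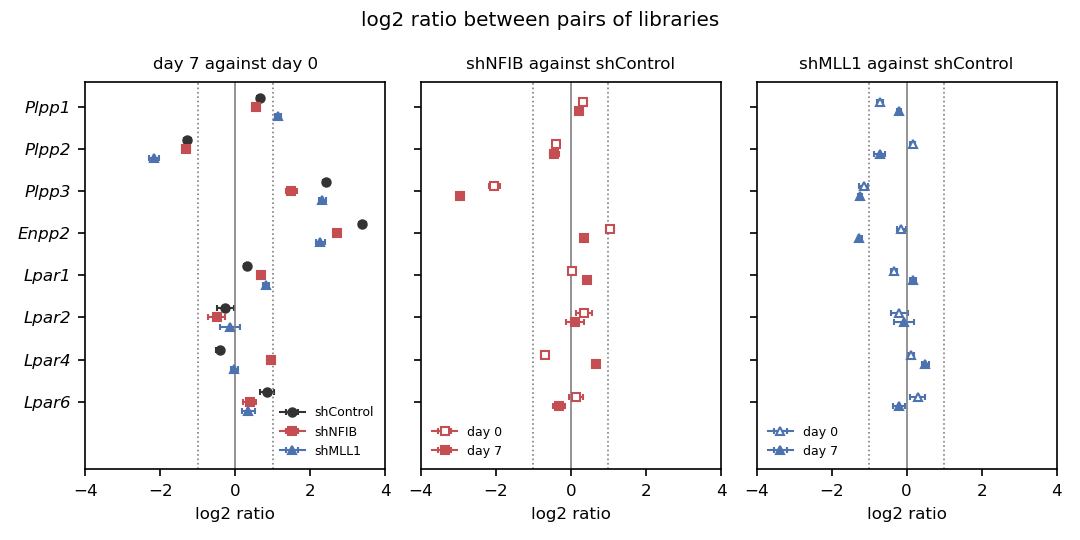
Log2 ratios between pairs of libraries (horizontal axes) for the 8 measured genes, with bars for the 95% counting interval and dotted lines at 2-fold. Left, day 7 against day 0 in the 3 lines, and middle and right, shNFIB and shMLL1 against shControl with open symbols for day 0 and filled symbols for day 7, where Plpp3 lies at −2.04 and −2.97 in shNFIB and at −1.15 and −1.25 in shMLL1.

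Other genes of the pathway were followed in 5 lists with 56 genes, of which 44 were tested. By day, 20 of the 44 were called in the edgeR quasi-likelihood test, beside 33.3% of all genes, with 12 higher (16.8% of all genes) and 8 lower (16.5%) at day 7. There were 23 at unadjusted p under 0.05, beside 46.9% of all genes, and 22 with DESeq2, beside 38.9%. Their median log2 difference was −0.06, beside 0.01 for all genes. For the knockdown lines edgeR called 0 of 44, beside 0.376% of all genes in shNFIB and 0.0299% in shMLL1. In shNFIB there were 9 of 44 at unadjusted p under 0.05, beside 12.5% of all genes, and 4 with DESeq2, which called 615 genes (3.67%). In shMLL1 there were 7 of 44, beside 9.28%, and 2 with DESeq2, which called 410 genes (2.5%).

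Relatives of the phosphatases (12 genes, 7 tested) had 2 higher and 1 lower at day 7, beside 16.8% and 16.5% of all genes, with a median log2 difference of −0.07. Plppr3, a member of the phosphatase-related family that is best known in neurons and lacks the catalytic residues, was at 3.44 and 28.4 CPM in shControl, 2.03 and 19.9 CPM in shNFIB, and 3.48 and 22.9 CPM in shMLL1. It rose by 3.01 on the log2 scale (edgeR quasi-likelihood, Benjamini-Hochberg adjusted p = 0.000633, 3 of 3 lines). Plppr2, of the same family, rose by 1.34 (adjusted p = 0.00621, edgeR with Benjamini-Hochberg, 3 of 3 lines) and had log2 ratios of shNFIB to shControl of −1.35 at day 0 and −1.13 at day 7. Sgpp1, a phosphatase of sphingosine 1-phosphate in the endoplasmic reticulum, fell by 0.84 on the log2 scale (adjusted p = 0.0138, edgeR with Benjamini-Hochberg, 3 of 3 lines). Plppr5 had 42 counts in shControl at day 0 and 0 in the other 5 libraries, which makes it at least 13.8-fold lower in shNFIB and at least 13.2-fold lower in shMLL1 at day 0 and at least 13.4-fold lower in shControl at day 7, with the floor at 3 counts per library. Acp6, a mitochondrial LPA phosphatase, was at 4.04 and 3.97 CPM in shControl, 1.87 and 1.73 CPM in shNFIB, and 10.6 and 10.1 CPM in shMLL1.

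Enzymes that make or use LPA and phosphatidic acid (20 genes, 18 tested) had 5 higher and 2 lower at day 7, beside the same 16.8% and 16.5% of all genes, with a median log2 difference of 0.06. The phosphatidate phosphatases of the lipin family divided, with Lpin3 at 3.26 and 24.8 CPM in shControl, 4.4 and 44.9 CPM in shNFIB, and 1.95 and 36.2 CPM in shMLL1. Lpin3 rose by 3.48 on the log2 scale and Lpin1 by 1.98 (edgeR quasi-likelihood, Benjamini-Hochberg adjusted p = 0.000707 and 0.0145), while Lpin2 fell by 0.68 (adjusted p = 0.0254), each in 3 of 3 lines. The lysophospholipase D gene Gdpd3, the phospholipase D gene Pld1 and the acyltransferase gene Agpat3 also rose, and the phospholipase A2 gene Pla2g4a fell by 1.36 on the log2 scale (adjusted p = 0.0139, edgeR with Benjamini-Hochberg, 3 of 3 lines). Pla1a, a secreted phospholipase, was at 1.72 and 4.07 CPM in shControl, 1.9 and 13.2 CPM in shNFIB, and 8.71 and 9.1 CPM in shMLL1, and did not pass.

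Of the ENPP paralogues of autotaxin (5 genes, 4 tested), 1 was higher and 2 were lower at day 7 (all genes, 16.8% and 16.5%), with a median of 0.23. Enpp1, which makes pyrophosphate and limits mineral deposition, was at 7.76 and 21.9 CPM in shControl, 3.23 and 6.6 CPM in shNFIB, and 3.88 and 7.54 CPM in shMLL1. It rose by 1.17 on the log2 scale (edgeR quasi-likelihood, Benjamini-Hochberg adjusted p = 0.0157, 3 of 3 lines), and its highest level, like that of Plpp3, was in shControl at day 7. Enpp3 and Enpp4 fell by 1.08 and 0.70 on the log2 scale (adjusted p = 0.0137 and 0.0299, edgeR with Benjamini-Hochberg, 3 of 3 lines each).

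Genes of sphingosine 1-phosphate, the other signalling lipid that these phosphatases degrade (9 genes, 5 tested), had 2 higher and 0 lower calls at day 7 by edgeR (all genes, 16.8% and 16.5%). Among the 5, 2 were at unadjusted p under 0.05, beside 46.9% of all genes. With DESeq2 2 were called, beside 38.9%, and the median was 0.06. Sphk1, the kinase that makes the lipid, was at 14.3 and 135 CPM in shControl, 7.35 and 82.8 CPM in shNFIB, and 17.5 and 185 CPM in shMLL1. It rose by 3.38 on the log2 scale (edgeR quasi-likelihood, Benjamini-Hochberg adjusted p = 0.000443), and Sphk2 by 0.78 (adjusted p = 0.0219), in 3 of 3 lines each. The receptors S1pr1 and S1pr2 ranged from 28.6 to 55.2 CPM and from 67.5 to 94.7 CPM and did not pass.

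Genes known to respond to LPA through SRF and YAP (10 genes, 10 tested) had 2 higher and 3 lower calls at day 7 (all genes, 16.8% and 16.5%), with a median of −0.89. Acta2, smooth muscle actin, was at 1516 and 255 CPM in shControl, 1491 and 130.1 CPM in shNFIB, and 1273 and 163 CPM in shMLL1. It fell by 3.02 on the log2 scale (edgeR quasi-likelihood, Benjamini-Hochberg adjusted p = 0.000926, 3 of 3 lines), and Srf and Ccn2 fell by 0.93 and 0.89 (adjusted p = 0.0117 and 0.0172). The immediate early genes Fos and Egr1 rose by 2.50 and 1.06 (adjusted p = 0.00364 and 0.008, edgeR with Benjamini-Hochberg, 3 of 3 lines each). Ankrd1, a YAP target, was at 192 CPM in shMLL1 at day 0 and between 1.97 and 6.08 CPM in the other 5 libraries.

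The windows around the gene starts were searched for the NFI motif because Nfib was knocked down. The window ran from 250 bases before to 50 bases after each start in RefSeq (GRCm38.p6). Windows were available here for 7 of the 9 genes, so Plpp1 and Enpp2 were not searched. The NFI half-site TTGGC, on either strand and so also read as GCCAA, was found for 4 of the 7 genes, Plpp3, Lpar1, Lpar2 and Lpar6, beside 50.4% of all 27025 genes with a window. Counted by window, since Lpar1 has 3, it was in 5 of 9, beside 46.7% of all 32851 windows. The full palindrome, TTGGC, 5 bases and GCCAA, was in none of the 7 and in 0.0365% of all windows. A match is a description of the letters, and binding of NFIB is not part of the RNA counts used here. The 250 bases before the Plpp3 start, chr4:105157097-105157346 on the plus strand, are shown because Plpp3 was the 1 of the 8 measured genes called in shNFIB, with the half-site in capitals at chr4:105157283-105157287, its first base 64 bases upstream of the start.
Plpp3: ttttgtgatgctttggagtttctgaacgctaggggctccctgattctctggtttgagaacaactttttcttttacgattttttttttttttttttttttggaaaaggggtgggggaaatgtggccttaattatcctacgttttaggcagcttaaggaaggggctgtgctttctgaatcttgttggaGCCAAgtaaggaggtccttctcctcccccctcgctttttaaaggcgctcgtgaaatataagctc
The stretches around the matches of Lpar2 (chr8:69822532-69822536, plus strand) and Lpar6 (chr14:73237800-73237804, plus strand) are given beside it, as genes with the same letters that did not pass the test in shNFIB. The capitals again mark the half-site.
Lpar2: acccccaaggGCCAAgagctaaggc
Lpar6: ggaaagcattTTGGCataaaaagag

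The genes whose levels most resembled those of Plpp3 were picked by the Pearson correlation of log2 CPM over the 6 libraries, among 13338 genes with at least 10 counts in each library. They were Hmg20b (r = 0.9963), Fuk (0.9945), Cers1 (0.9935), Josd2 (0.9931) and Guca1b (0.9912). Hmg20b, for example, was at 36.8 and 63.5 CPM in shControl, 21.9 and 31.7 CPM in shNFIB, and 29.4 and 50.1 CPM in shMLL1, in the same order as Plpp3 but over a narrower range. Of the other measured genes of the group, Lpar6 came closest to Plpp3 (r = 0.76), followed by Enpp2 (0.51). Among the 13338 genes, these ranked only 1399 and 3411. Lpar2 (−0.72) and Plpp2 (−0.54) ran opposite to Plpp3. The libraries share lines and days, and with 6 points and many genes such values describe these libraries alone.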

How the data were processed

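RNA of 6 libraries was measured as raw counts per gene, which the authors deposited. Per the submitters' notes and the study's methods, reads of 100 bp were trimmed with Trimmomatic 0.39, aligned to GRCm38 (mm10) with HISAT2 2.2.1, filtered for mapping quality over 30 with SAMtools 1.12, stripped of PCR duplicates and counted with HTSeq 0.11.1. The annotation release and strand setting are not given in the sources used here.

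From these counts, log2 ratios used TMM factors and a prior count of 0.125. The quasi-likelihood fit (edgeR 4.0.16, R 4.3.3) had line and day as terms, 16742 genes kept by filterByExpr, and a biological coefficient of variation of 0.281 and 2 residual degrees of freedom. Genes were called at an adjusted p of 0.05. Each SE was derived from the test, as the absolute log2 difference divided by the square root of its F statistic. Both libraries of a line come from the same cells, and their deviations from the day means correlated at 0.424 (shControl), 0.427 (shNFIB) and 0.273 (shMLL1). Lengths and positions came from GENCODE M21. DESeq2 1.42.0, other scalings, filters, prior counts, lengths, thinned counts and subsets of libraries were alternatives. Python 3.11.15, scipy 1.17.1 and matplotlib 3.10.9 were also used.

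Genes named were the 9 members, the hairpin targets, list members past 2-fold or with the most counts, and the 5 genes most like Plpp3; a few others (Pla1a, Plppr5 and overlapping genes among them) were named after their values were seen. Members and lists were chosen with earlier results of these data known. Results of 1 further gene list are not reported here.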

Additional observations from a re-analysis of the deposited data

Results flagged for a closer look

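Some log2 ratios had opposite signs under the same contrast in different lines or on different days. Each rests on 1 library per condition, so none of these differences was tested. The Lpar4 ratio of day 7 to day 0 was −0.42 in shControl and 0.95 in shNFIB. The Lpar4 ratio of shNFIB to shControl was −0.70 at day 0 and 0.66 at day 7. The ratio of shMLL1 to shControl was 0.16 at day 0 and −0.72 at day 7 for Plpp2, −0.35 and 0.17 for Lpar1, and 0.29 and −0.21 for Lpar6.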

How the results depend on the processing

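The calls of Plpp2 and Enpp2 by day (8 of 8 alternatives) and of Plpp3 in shNFIB (5 of 5) held. Of 336 recomputed log2 ratios of the 8 measured genes, 5 crossed 2-fold and 5 changed sign, each of the latter from an absolute log2 ratio under 0.25. The crossings were Enpp2 in shNFIB at day 0 (below), Lpar4 by day in shNFIB (from 0.95 to 1.04 with total-count scaling and with thinned counts, which made 4 genes past 2-fold) and Lpar1 by day in shMLL1 (from 0.82 to 1.03 with total-count scaling). Scaling by total count alone shifted all log2 ratios by 0.10, 0.10 and 0.21 for the day in shControl, shNFIB and shMLL1. The shifts for shNFIB to shControl were −0.11 on both days, and for shMLL1 0.00 and 0.11. By day it moved the share of higher calls from 50.5% to 60.8% (3287 higher, 2116 lower).

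Without a minimum count, and with a minimum of 50, the genes past 2-fold by day numbered 12666 and 4081 in shControl, 11066 and 3081 in shNFIB, and 14789 and 5160 in shMLL1. For shNFIB to shControl they numbered 7831 and 1032 at day 0, and 9364 and 1916 at day 7. For shMLL1 to shControl they numbered 9651 and 1696, and 9062 and 1173. Fewer or more genes enter these counts by construction. Of the 9 genes, 1 was past 2-fold in shNFIB at day 0 with total-count scaling and 1 with thinned counts, since Enpp2 moved to 0.93 and 1.00. In shMLL1 at day 0 there were 2 without a minimum, as Lpar3 has 1 count.

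By day, 2 of the genes were called without the line block. In that fit 2118 of all 16742 genes tested were called higher and 1786 lower. Leaving out each line in turn gave 2102 (without shControl) to 4849 genes called by day, against 5574. In shNFIB, 615 genes were called with DESeq2, 688 with no filter and 524 with only the 4 libraries compared, against 63. In shMLL1 the counts were 410, 526 and 194, against 5, and 1 of the 9 genes with DESeq2 and 1 with no filter. The cause was not tested. Calls over a knockdown line thus depend on the tool and filter.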

Other observations

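Each condition had 1 library, and the knockdown comparisons share the shControl libraries, so the tests over lines treat a line's own response to the medium as error. The counting intervals leave out variation between cultures, which was not measured. Levels are of RNA in bulk cultures and say nothing of enzyme activity, LPA concentration or the kind of cell that made the RNA. Expression of Plpp1, Enpp2 and Lpar6 is uncertain by the reads of overlapping genes on the other strand.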
